A study of Mus musculus with 10 samples.

Results

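The collagen genes of the mouse colon were described by structural class in experimental colitis with and without transfer of ECP-treated donor cells. Members were all genes whose symbol on the array platform reads Col, a type number, the letter a and a chain number, which gave 42 genes among the 19505 named genes measured. They comprised 11 fibrillar collagen genes, 6 basement membrane collagen genes (the type IV chains), 8 FACIT genes and 17 genes of other types. Each had 1 probe set. The anchoring fibril gene Col7a1 and the fibril-associated genes Col12a1 and Col21a1 had no named probe set here and were not analysed.

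Total RNA of complete colon tissue from wild-type C57BL/6 mice was hybridised to 10 Clariom S Mouse arrays, which give 1 value per probe set. The 5 ECP arrays came from mice that drank water with 3% dextran sulfate sodium (DSS) and received an intraperitoneal anti-PD1 antibody as well as ECP-treated donor cells. The 5 control arrays came from mice given DSS and anti-PD1 only, so every sample carried the colitis treatment and no uninflamed colon was among the arrays. ECP is extracorporeal photopheresis, in which leukocytes are exposed outside the body to a photosensitiser and ultraviolet A light. The labels do not say whether each array was a separate mouse, and they give no age or batch.

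Collagens are the main structural proteins of the extracellular matrix. Fibrillar collagens such as types I and III form the tensile fibres of the intestinal submucosa and are made mostly by fibroblasts and smooth muscle cells. Type IV chains assemble into the network of basement membranes under epithelia and around vessels, muscle cells and nerves. FACITs, the fibril-associated collagens with interrupted helices, decorate the surface of fibrils, and the other types include beaded filaments, short chain networks, the endostatin-bearing multiplexins and transmembrane collagens. Collagen deposition is known from the repair of colitis and from intestinal fibrosis.

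Before the collagens are described, 2 control arrays have to be set apart. The mean log2 level of 9 pancreatic acinar genes was 5.32 to 5.57 in the ECP arrays, against 10.42, 5.63, 5.44, 12.27 and 6.46 in control replicates 1 to 5. Control replicates 1 and 4 thus carried high levels of digestive enzyme transcripts. The tissue label was borne out by 8 colon epithelium markers, whose mean level was 12.40 to 12.50 in the ECP arrays and 12.25 to 12.54 in the control arrays. Values are log2 intensities, on which a difference of 1 is a 2-fold difference, and ± gives the SD within a group (n = 5). Differences are ECP minus control, with the SE of the limma fit for single genes. For class levels the SE comes from the SDs of both groups, without limma. In whole tissue, fewer cells of a type and less RNA per cell cannot be told apart.

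No collagen gene changed past the threshold in the ECP arrays. With limma and Benjamini-Hochberg adjustment over all genes, 0 of 42 members had an adjusted p under 0.05 (0% of all genes), and adjusted p-values ran from 0.954 to 1.000. At an unadjusted p under 0.05, 0 members were higher (2.31% of all genes) and 1 was lower (2.77% of all genes), which was the fibrillar gene Col27a1. Of the 42 differences, 20 were above 0 and 22 below 0, where 53.3% of all genes were above 0. In 0 members did all arrays of one group lie above all arrays of the other (1.22% of all genes).

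The differences were small and their intervals bounded them. They ran from -0.22 for Col27a1 to 0.19 for Col2a1, the chain of cartilage type II collagen, with a median of -0.0026. The median over all genes was 0.0078, with quartiles of -0.060 and 0.074. In 29 of 42 members the difference was under 0.1 in size, as it was in 67.4% of all genes. All 42 of the 95% confidence intervals lay between -1 and 1, as did 99.1% of those of all genes, and the widest reach was -0.51 for Col6a5 and 0.55 for Col2a1. On simulated data of the same 19505 genes, 200 of them changed, the fit recovered 58% of genes given a difference of 0.5. It recovered 94% of genes given a difference of 1. The simulated noise was normal and independent, with 1 SD per gene for both groups. In the real arrays the control SD was the larger in 65.8% of all genes, so these shares do not give the power for the collagen genes.

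**Figure D1:**
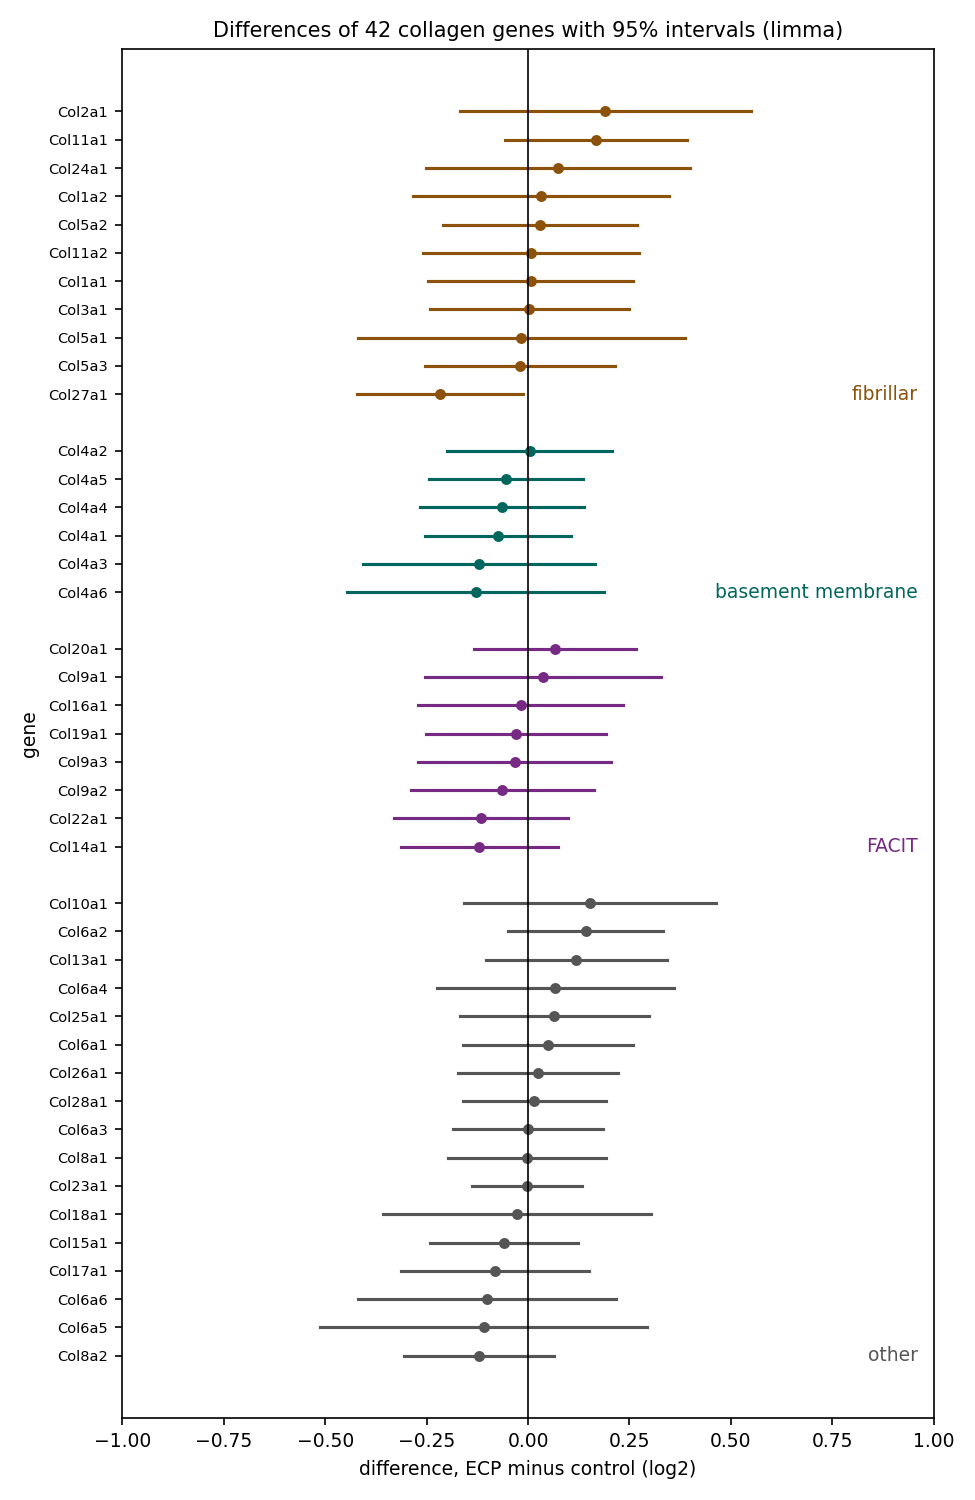
Difference between ECP and control arrays (log2, x axis) for each of the 42 collagen genes (y axis), with dots for the limma estimate and lines for its 95% interval, coloured by class. Every interval lies between -1 and 1, and the interval of Col27a1 is the one that does not reach 0.

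Class means differed little between the groups. The fibrillar level, the mean log2 value of the 11 genes, was 7.55 ± 0.05 in the ECP arrays and 7.53 ± 0.05 in the control arrays (difference 0.02, SE 0.03, n = 5 each). FACIT genes averaged 7.19 ± 0.07 in the ECP arrays and 7.23 ± 0.17 in the control arrays (difference -0.03, SE 0.08). Genes of other types averaged 7.14 ± 0.04 in the ECP arrays and 7.13 ± 0.07 in the control arrays (difference 0.0077, SE 0.04). The type IV level was 6.79 ± 0.08 in the ECP arrays and 6.86 ± 0.01 in the control arrays (difference -0.07, SE 0.03). No test was made of class means, because the members were chosen with earlier results of these data known.

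**Figure D2:**
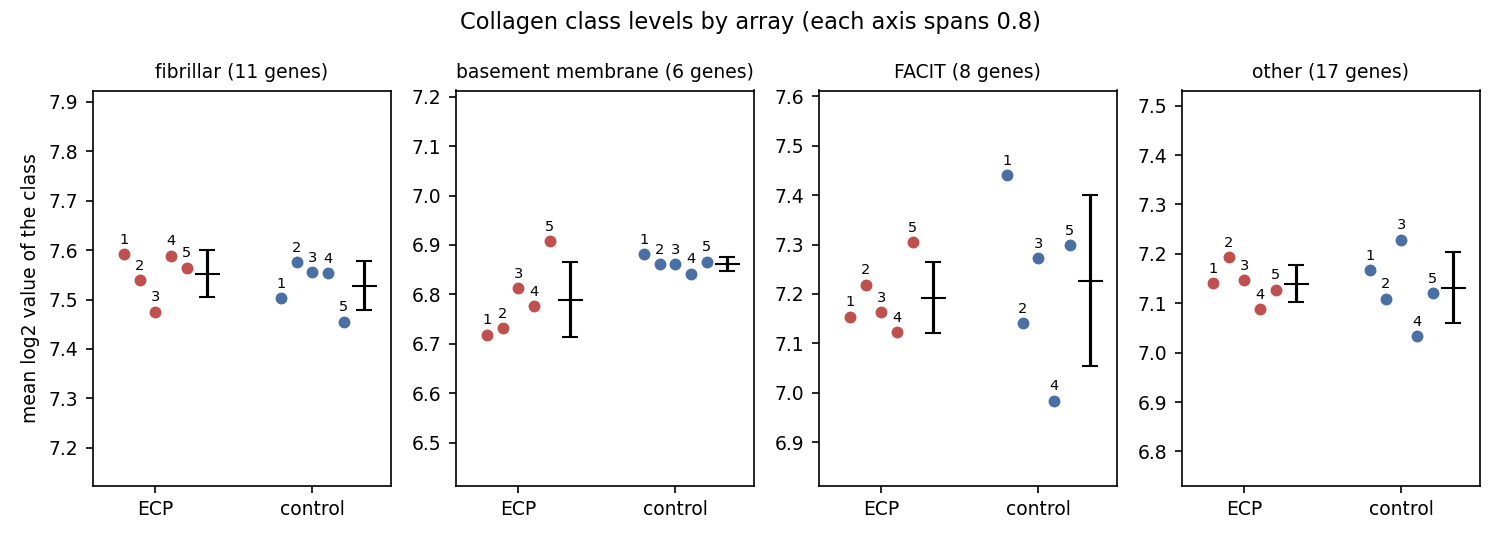
Mean log2 value of the genes of each collagen class (y axis) in the ECP arrays (red) and the control arrays (blue), 1 dot per array with its replicate number, and mean ± SD drawn to the right of the dots. All panels span 0.8. The groups overlap in each class, and in the basement membrane panel 4 of the 5 ECP arrays lie below all control arrays.

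Fibrillar collagens of the interstitial matrix stood at the same mean levels in both groups to within 0.04. Col1a1, which codes for the main chain of type I collagen (chromosome 11, 94936224 to 94953042, GRCm38.p6), had 9.74, 9.63, 9.57, 9.87 and 9.62 in the ECP arrays, against 9.56, 9.78, 9.64, 10.05 and 9.37 in the control arrays. The lowest and the highest array were both controls, and the difference was 0.0063 (SE 0.12, 95% interval -0.25 to 0.26). Col1a2, the partner chain of type I collagen, had 9.89, 9.57, 9.53, 9.88 and 9.56 in the ECP arrays, against 9.26, 9.86, 9.86, 9.93 and 9.37 in the control arrays. Its difference was 0.03 (SE 0.14, 95% interval -0.28 to 0.35), and the ECP arrays lay inside the control range.

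Col3a1, the chain of type III collagen that is laid down with type I in distensible organs, had 11.06, 10.98, 10.99, 11.22 and 10.90 in the ECP arrays, against 10.71, 11.19, 11.13, 11.27 and 10.84 in the control arrays. Its difference was 0.0027 (SE 0.11, 95% interval -0.24 to 0.25). The type V chains, which nucleate type I fibrils, were alike in their small mean differences but not in their spread. Col5a1 had 7.17, 6.96, 6.95, 7.20 and 7.04 in the ECP arrays, against 6.37, 7.27, 7.15, 7.64 and 6.98 in the control arrays. Control replicate 1 was the lowest array and control replicate 4 the highest, 1.27 apart, the widest range of any of the 42 members. The Col5a1 difference was -0.02 (SE 0.18, 95% interval -0.42 to 0.39). Col5a2 averaged 7.41 ± 0.19 in the ECP arrays and 7.38 ± 0.18 in the control arrays, a difference of 0.03 (SE 0.11).

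Col27a1, a fibrillar collagen gene best known from cartilage, was the member with the smallest p. It had 7.02, 7.04, 6.87, 7.08 and 6.75 in the ECP arrays, against 7.45, 7.06, 7.06, 7.17 and 7.11 in the control arrays. The groups overlapped, with ECP replicate 4 above control replicates 2 and 3, and control replicate 1 stood above the rest. The difference was -0.22 (SE 0.09, 95% interval -0.42 to -0.01, unadjusted p = 0.0396, adjusted p = 0.954, limma). Without control replicate 1 it was -0.15 (unadjusted p = 0.0917), and without control replicates 1 and 4 it was -0.12 (adjusted p = 0.848). The other 5 fibrillar genes, Col2a1, Col5a3, Col11a1, Col11a2 and Col24a1, had differences from -0.02 to 0.19, 4 of them above 0. In all, 8 of the 11 fibrillar differences were above 0.

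Type IV collagen genes were the class with the most one-sided signs, 1 of 6 above 0 and 5 below, and 0 of 6 passed the test. The class level was 6.72, 6.73, 6.81, 6.78 and 6.91 in the ECP arrays, against 6.88, 6.86, 6.86, 6.84 and 6.87 in the control arrays. ECP replicates 1 to 4 lay below every control array and ECP replicate 5 above every one. The class difference of -0.07 was also -0.07 without control replicates 1 and 4. It was -0.10 without ECP replicate 5 and -0.06 without ECP replicate 1. Without genes below the median, a setting that leaves the dimmer chains out, it was -0.04.

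Single type IV genes did not share 1 pattern over the arrays. Col4a1, which with Col4a2 forms the ubiquitous type IV network (chromosome 8, 11198423 to 11312889), had 8.52, 8.38, 8.36, 8.53 and 8.33 in the ECP arrays, against 8.68, 8.50, 8.48, 8.55 and 8.27 in the control arrays. Its difference was -0.07 (SE 0.08, 95% interval -0.25 to 0.11) and turned to 0.0047 without control replicates 1 and 4. Col4a2 had 8.67, 8.69, 8.69, 8.86 and 8.62 in the ECP arrays, against 8.61, 8.71, 8.69, 9.01 and 8.49 in the control arrays, a difference of 0.0038 (SE 0.09). The groups overlapped for both of these chains.

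Col4a3 and Col4a6, chains of more restricted networks, had the differences farthest from 0 in the class. Col4a3, a chain of the kidney and lung basement membrane, had 4.37, 4.42, 4.92, 4.29 and 4.95 in the ECP arrays, against 4.66, 4.75, 4.62, 4.68 and 4.84 in the control arrays. ECP replicates 1, 2 and 4 lay below all controls and ECP replicates 3 and 5 above all of them, and the difference was -0.12 (SE 0.13, unadjusted p = 0.376). It was -0.05 without ECP replicate 4, -0.07 without ECP replicate 1, -0.20 without ECP replicate 3 and -0.21 without ECP replicate 5. Col4a3 was dim, at percentile 17.2 of all genes by mean level, and was not separated from background. Col4a6, a chain of the network around smooth muscle, had 6.26, 6.32, 6.03, 6.51 and 6.98 in the ECP arrays, against 6.62, 6.40, 6.55, 6.54 and 6.64 in the control arrays. ECP replicate 3 was the lowest of all arrays and ECP replicate 5 the highest, and the difference was -0.13 (SE 0.15, 95% interval -0.45 to 0.19). It was -0.03 without ECP replicate 3 and -0.27 without ECP replicate 5. Its partner Col4a5 averaged 5.60 ± 0.16 in the ECP arrays and 5.66 ± 0.11 in the control arrays (difference -0.05, SE 0.09). Col4a4, the partner of Col4a3, differed by -0.06.

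FACIT genes had 2 of 8 differences above 0 and 6 below. Col14a1, which codes for a collagen that binds fibrils and regulates their growth, had 6.19, 6.13, 6.12, 6.23 and 5.95 in the ECP arrays, against 6.17, 6.22, 6.40, 6.03 and 6.42 in the control arrays. The difference was -0.12 (SE 0.09, 95% interval -0.31 to 0.07), and -0.22 without control replicates 1 and 4 (adjusted p = 0.695), the smallest adjusted p that any collagen gene reached in any setting. Col16a1, a fibril-associated collagen of dermis and smooth muscle, had 8.31, 8.26, 8.20, 8.18 and 8.43 in the ECP arrays, against 8.72, 8.03, 8.25, 8.15 and 8.32 in the control arrays. Control replicate 1 stood highest, and the difference was -0.02 (SE 0.12), or 0.08 without control replicates 1 and 4. The other 6 FACIT genes, the type IX chains with Col19a1, Col20a1 and Col22a1, had differences from -0.12 to 0.07.

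Of the other types, the beaded filament collagen VI had its chains close together between the groups. Col6a2 had 9.33, 9.21, 9.07, 9.32 and 9.13 in the ECP arrays, against 8.83, 9.21, 9.21, 9.07 and 9.02 in the control arrays, a difference of 0.14 (SE 0.09, 95% interval -0.05 to 0.33, unadjusted p = 0.133). Control replicate 1 was its lowest array, without which the difference was 0.08. Col6a1 had 8.96, 8.88, 8.95, 8.81 and 8.87 in the ECP arrays, against 8.57, 8.78, 9.16, 8.89 and 8.83 in the control arrays, so that control replicates 1 and 3 bounded the range. Its difference was 0.05 (SE 0.10) and turned to -0.03 without control replicates 1 and 4. Col6a3, the long chain of the same filament, averaged 9.25 ± 0.12 in the ECP arrays and 9.25 ± 0.14 in the control arrays, a difference of 0.00032 (SE 0.08).

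Multiplexins, whose C-terminal fragments include endostatin, are basement membrane components of vessels and muscle. Col18a1, the endostatin precursor gene (chromosome 10, 77052178 to 77166530), had 9.51, 9.44, 9.20, 9.46 and 9.36 in the ECP arrays, against 9.18, 9.32, 9.49, 10.02 and 9.09 in the control arrays. Control replicate 4 stood highest, and the difference was -0.03 (SE 0.15, 95% interval -0.36 to 0.30), or 0.09 without control replicates 1 and 4. Col15a1 averaged 7.33 ± 0.11 in the ECP arrays and 7.39 ± 0.15 in the control arrays (difference -0.06, SE 0.08). Counted with type IV, these genes left the basement membrane difference at -0.07.

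The vascular collagen gene Col8a1 averaged 6.98 ± 0.09 in the ECP arrays and 6.98 ± 0.18 in the control arrays (difference -0.0023, SE 0.09). Col17a1, a transmembrane collagen of hemidesmosomes, had 4.62, 4.82, 4.66, 4.80 and 4.46 in the ECP arrays, against 5.11, 4.65, 4.70, 4.67 and 4.62 in the control arrays. Control replicate 1 stood apart from all other arrays, and the difference of -0.08 (SE 0.11) turned to 0.01 without control replicates 1 and 4. Col17a1 was dim too, at percentile 18.1 of all genes by mean level. The other 10 genes of the class had differences from -0.12 for Col8a2 to 0.15 for Col10a1, 6 of them above 0.

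Chains of the same collagen were compared across the 10 arrays, both groups together, for 8 gene pairs whose products share a protein or a fibril. Col1a1 and Col1a2 varied together (Pearson r = 0.807, permutation p = 0.0018, adjusted p = 0.0106, Spearman rho = 0.927, permutation p = 0.00038, adjusted p = 0.00152, two-sided, adjusted over 8 pairs). Without the 2 arrays farthest from the Col1a1 median, r was 0.794 (exact permutation p = 0.00144, adjusted p = 0.0115), and without control replicates 1 and 4 it was 0.878. Col1a1 and Col3a1 gave r = 0.824 (permutation p = 0.00266, adjusted p = 0.0106) and rho = 0.939 (permutation p = 0.0002, adjusted p = 0.00152). Their r was 0.798 without the 2 farthest arrays (exact permutation p = 0.00779, adjusted p = 0.0312) and 0.874 without control replicates 1 and 4. The 2 highest ECP arrays in Col1a1, replicates 1 and 4, were also the 2 highest in Col1a2 and Col3a1.

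Each of the 3 type IV pairs is transcribed in opposite directions from neighbouring starts, and none passed the threshold over the 10 arrays. The RefSeq starts used for Col4a1 (11312826, inside the gene span given above) and Col4a2 (11312805) overlap by 22 bases (GRCm38.p6). The pair gave r = 0.434 (permutation p = 0.210, adjusted p = 0.254) and rho = 0.394 (permutation p = 0.262, adjusted p = 0.300). Without control replicates 1 and 4, r was 0.766 (exact permutation p = 0.0101, adjusted p = 0.0269), and without the 2 arrays farthest from the Col4a1 median it was 0.659 (exact permutation p = 0.0119, adjusted p = 0.0316). Spearman's rho was 0.667 in both of these settings and did not pass (adjusted p = 0.133 and 0.166, exact permutation). Col4a3 and Col4a4 gave r = 0.368 (permutation p = 0.307, adjusted p = 0.307) and rho = 0.455 (permutation p = 0.192, adjusted p = 0.300). Without the 2 farthest arrays their r was 0.224 and rho 0.143, and without control replicates 1 and 4 r was 0.625 and rho 0.690 (exact permutation, adjusted p = 0.180 and 0.133). The starts used for Col4a5 (141475419) and Col4a6 (141474076) lie 1342 bases apart. The pair gave r = -0.592 (permutation p = 0.0695, adjusted p = 0.179) and rho = -0.394 (permutation p = 0.260, adjusted p = 0.300). The 2 farthest arrays here were ECP replicate 3 (Col4a5 at 5.87) and control replicate 2 (5.79), and leaving them out gave r = -0.216. Leaving out control replicates 1 and 4 instead gave r = -0.572 (exact permutation p = 0.132, adjusted p = 0.211). The part of single arrays in the negative relation was not tested.

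Among the remaining pairs, Col8a1 and Col8a2 gave r = 0.427 (permutation p = 0.222, adjusted p = 0.254) and rho = 0.758 (permutation p = 0.0143, adjusted p = 0.0382), and without the 2 farthest arrays r was 0.461 and rho 0.786 (exact permutation p = 0.0279, adjusted p = 0.0745). Col5a1 and Col5a2 gave r = 0.544 (permutation p = 0.112, adjusted p = 0.179) and rho = 0.527 (permutation p = 0.124, adjusted p = 0.249), or r = 0.435 without the 2 farthest arrays. Col6a1 and Col6a2 gave r = 0.549 (permutation p = 0.104, adjusted p = 0.179) and rho = 0.224 (permutation p = 0.539, adjusted p = 0.539), or r = -0.018 without the 2 farthest arrays. Of the 8 pairs, 2 were past the threshold by Pearson's r and 3 by Spearman's rho.

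**Figure D3:**
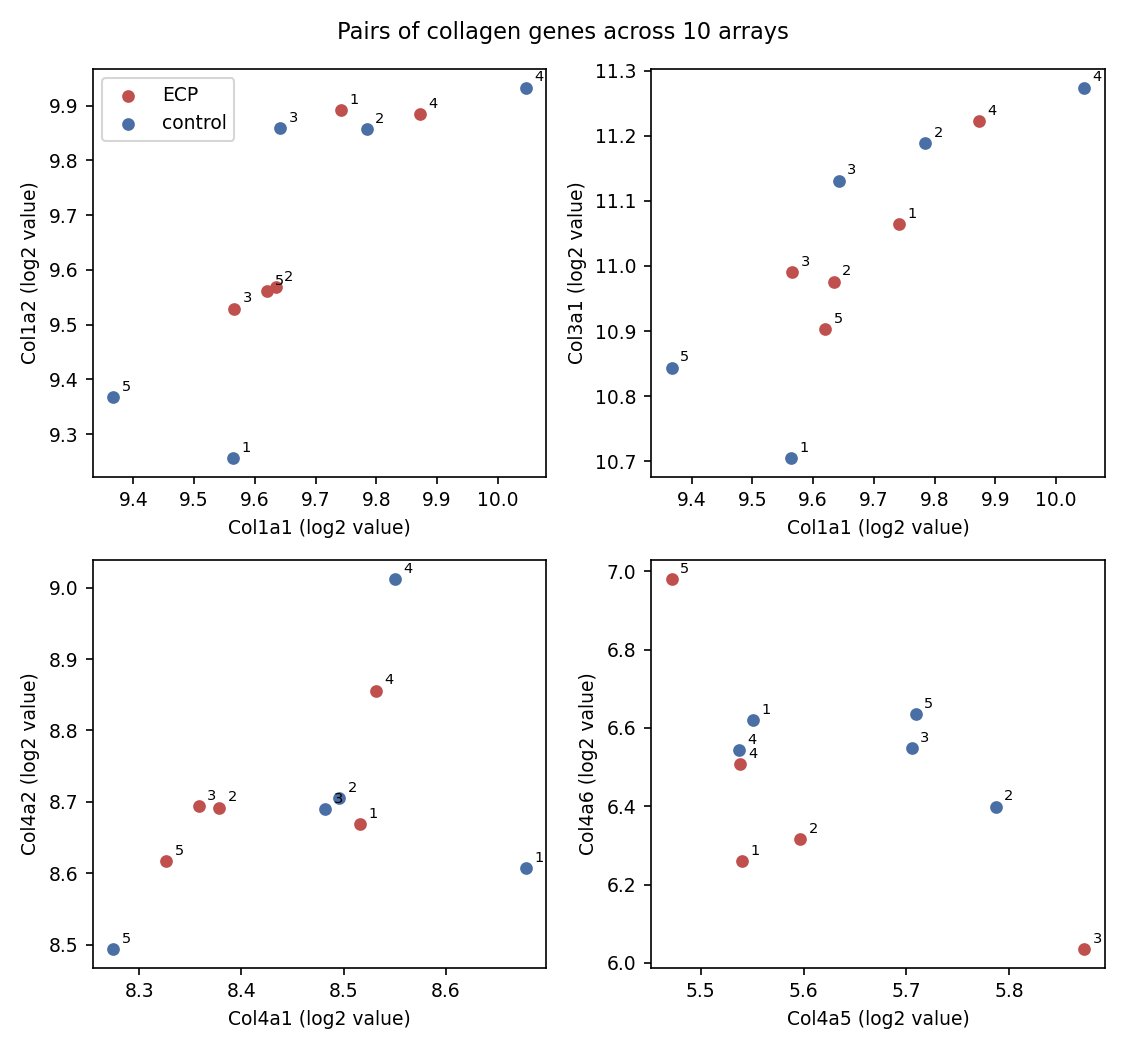
Log2 values of both genes of a pair (axes) on the 10 arrays, red for ECP and blue for control, numbered by replicate. The points of Col1a1 with Col1a2 and with Col3a1 rise together (r = 0.807 and 0.824), those of Col4a1 with Col4a2 do so apart from control replicates 1 and 4, and those of Col4a5 with Col4a6 run downward through ECP replicates 3 and 5.

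Upstream sequences of Col1a2 and Col3a1, each of which varied together with Col1a1, are shown because they differ in the promoter words they hold. Col1a2 and Col3a1 were not tested as a pair. Both are the 250 bases before the RefSeq start, 5′ to 3′ on the plus strand of GRCm38.p6, with matches to the CCAAT box, to the GC box word GGGCGG and to the TATA box word TATAAA on either strand in capitals. Col1a2 is at chr6:4505368-4505617 and Col3a1 at chr1:45311288-45311537. Col1a1 had no entry in the table used.
Col1a2: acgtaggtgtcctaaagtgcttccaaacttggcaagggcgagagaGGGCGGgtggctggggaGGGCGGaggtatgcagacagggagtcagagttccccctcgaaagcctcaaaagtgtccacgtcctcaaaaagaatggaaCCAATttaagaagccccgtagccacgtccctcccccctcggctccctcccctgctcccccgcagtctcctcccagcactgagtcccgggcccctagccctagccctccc
Col3a1: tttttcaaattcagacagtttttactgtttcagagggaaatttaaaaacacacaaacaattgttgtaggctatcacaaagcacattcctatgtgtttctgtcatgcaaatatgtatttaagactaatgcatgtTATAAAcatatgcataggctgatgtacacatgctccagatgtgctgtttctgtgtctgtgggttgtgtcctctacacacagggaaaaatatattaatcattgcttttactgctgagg
The Col1a2 window held 1 CCAAT, which begins 109 bases before the start, and 2 GGGCGG. The Col3a1 window held 1 TATAAA and 0 of the other words. Over 37 windows of 34 measured collagen genes, GGGCGG was found in 21, against 32.7% of all 32851 windows in the table, CCAAT in 12, against 33.9%, and TATAAA in 5, against 12.4%. A match is a description of the letters, and the words do not overlap each other.

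Control arrays were the more spread group for most members. The SD was larger among the control arrays in 33 of 42 members (78.6%), as it was in 65.8% of all genes. With control replicates 2, 3 and 5 alone the control SD was the larger in 22 of 42 members, against 41.3% of all genes. Here an SD of 3 control arrays was set beside an SD of 5 ECP arrays, so these shares are not on the footing of the first. Control replicate 1 was the highest array in 13 of 42 members (31.0%, against 15.9% of all genes), 5 of them FACIT genes. Control replicate 4 was the lowest array in 17 of 42 (40.5%, against 20.4% of all genes) and the highest in 9, 5 of which were the fibrillar genes Col1a1, Col1a2, Col3a1, Col5a1 and Col5a2. These are the arrays with the high acinar levels given above, whose part in the collagen values was not tested.

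**Figure D4:**
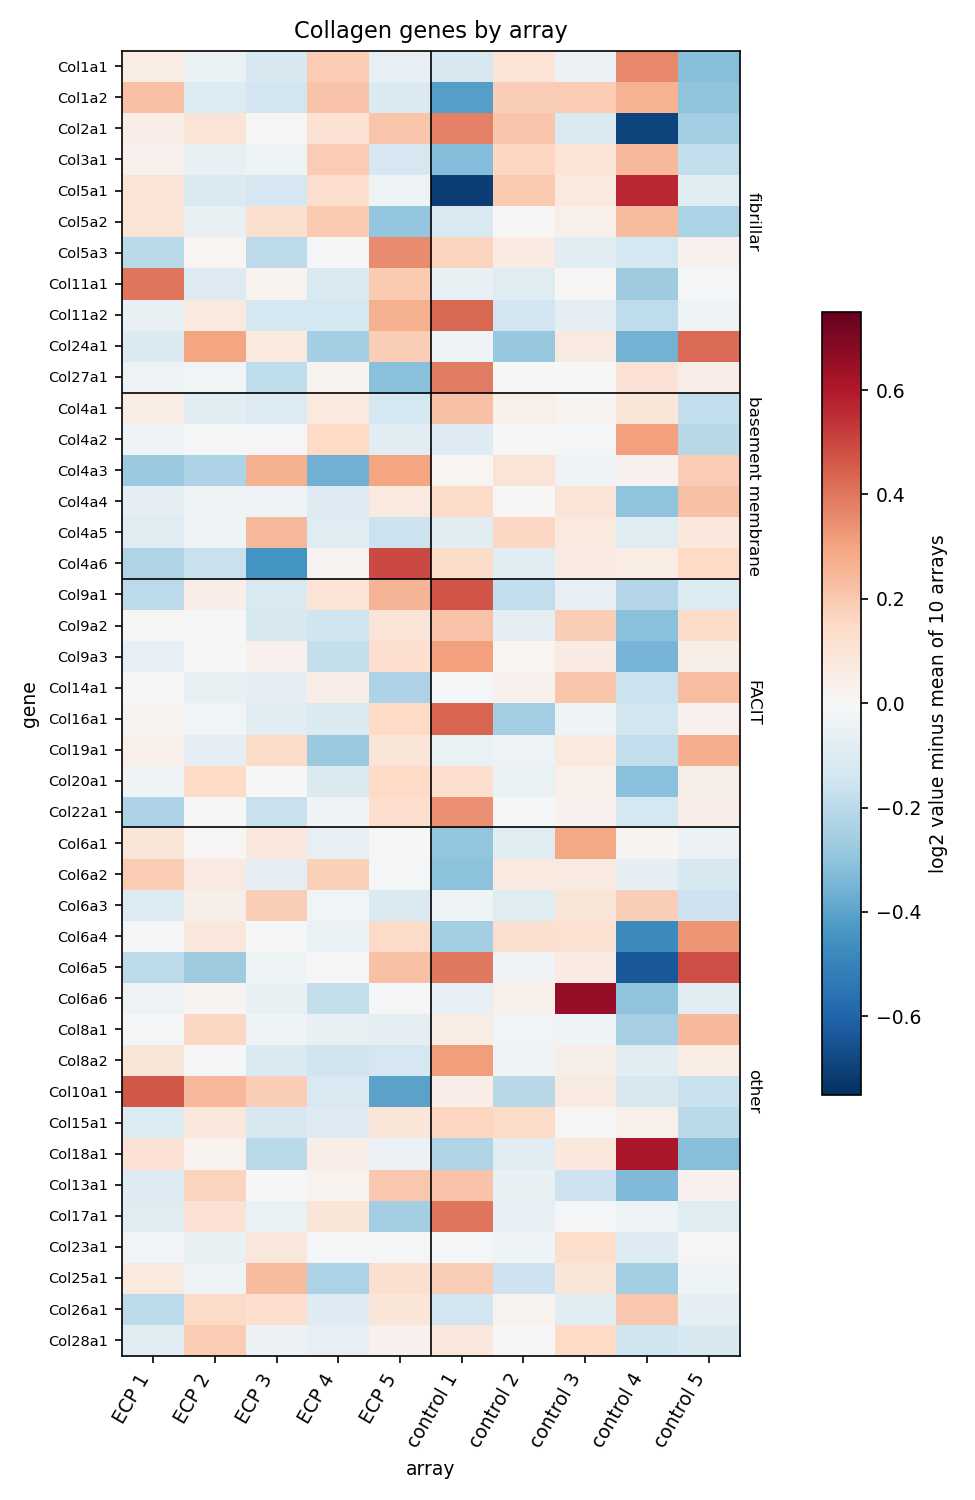
Log2 value of each collagen gene (rows, by class) on each array (columns), minus the gene's mean over the 10 arrays, with red above and blue below that mean. Col5a1 is lowest in control replicate 1 and highest in control replicate 4, which also holds the lowest Col2a1 and the highest Col18a1, and Col6a6 is high in control replicate 3.

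Genes that make, process and bind collagen were taken as 8 lists, and 0 of their measured members passed the threshold. Of 18 genes of collagen folding and modification, 13 were above 0 and 5 below, with a median of 0.02. Colgalt1, which attaches galactose to hydroxylysine of collagen, had 9.20, 9.03, 9.05, 9.08 and 9.07 in the ECP arrays, against 8.72, 8.90, 8.93, 9.05 and 8.80 in the control arrays. All but control replicate 4 lay below the lowest ECP array, and the difference was 0.21 (SE 0.07, unadjusted p = 0.0151, adjusted p = 0.822, limma). The chaperone gene Hsp90b1 differed by 0.12 (SE 0.07). In procollagen processing 4 of 7 genes were above 0 (median 0.01), with the C-proteinase enhancer gene Pcolce2 at -0.16 (SE 0.09) and the C-proteinase gene Bmp1 at 0.11 (SE 0.14). All 5 crosslinking genes were above 0 (median 0.09), with the lysyl oxidase gene Lox at 0.25 (SE 0.29) and the transglutaminase gene Tgm2 at 0.20 (SE 0.18). Without control replicate 1, Lox was at -0.01 and Bmp1 at -0.01. Tgm2 was at 0.07 without control replicate 5 and 0.35 without control replicate 4.

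The 8 lists, of 18, 7, 5, 10, 8, 10, 15 and 12 measured genes, held 3 members with an unadjusted p under 0.05. Of all genes, 2.31% were higher and 2.77% lower at that p. Collagen breakdown genes held 2 of the 3, in opposite directions. Fap, a serine protease gene of activated fibroblasts that cleaves denatured collagen, had 4.94, 4.82, 4.45, 4.73 and 5.11 in the ECP arrays, against 5.22, 4.94, 5.53, 5.10 and 5.14 in the control arrays, a difference of -0.37 (SE 0.13, unadjusted p = 0.0149, adjusted p = 0.822, limma). The collagenase gene Mmp13 had 8.90, 9.12, 8.70, 9.51 and 9.19 in the ECP arrays, against 7.75, 9.23, 8.63, 8.83 and 7.82 in the control arrays, a difference of 0.63 (SE 0.27, unadjusted p = 0.0370, adjusted p = 0.950, limma). Control replicates 1 and 5 were its low arrays, and the groups of both genes overlapped. Fap was dim, at percentile 21.7 of all genes by mean level, and was not separated from background. In all, 6 of the 10 genes of the breakdown list were above 0, with a median of 0.02. The list includes the metalloproteinase inhibitor genes Timp1 (0.36), Timp2 (0.15) and Timp3 (-0.02), so this count does not speak of breakdown enzymes alone.

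Collagen receptors had 8 of 8 genes above 0 (median 0.11), with the integrin chain gene Itgb1 at 0.14 (SE 0.08) and the inhibitory leukocyte receptor gene Lair1 at 0.25 (SE 0.16). Fibril-binding proteoglycans had 9 of 10 above 0 (median 0.08), with Omd at 0.13 and Kera at -0.11. Omd and Kera were dim, at percentiles 3.65 and 0.461 of all genes by mean level, where background is not separated. The level of this list was 7.80, 7.62, 7.59, 7.80 and 7.47 in the ECP arrays, against 6.89, 7.81, 7.94, 7.72 and 7.53 in the control arrays, lowest in control replicate 1. Laminins and other basement membrane proteins, the partners of type IV collagen, had 12 of 15 above 0 (median 0.05). With all 10 arrays, most of their signs thus ran opposite to those of type IV. Their level was 8.39, 8.37, 8.35, 8.51 and 8.42 in the ECP arrays, against 8.06, 8.44, 8.56, 8.47 and 8.38 in the control arrays. Control replicate 1 was lowest and lay below every ECP array, while control replicates 2 to 5 lay between 8.38 and 8.56. The signs of this list without control replicate 1 were not counted, so the contrast with type IV is given for all 10 arrays only. In that list the epithelial laminin chain gene Lama3 differed by -0.30 (SE 0.16) and Lama5 by 0.19 (SE 0.10). TGF-beta and matrix signalling genes had 9 of 12 above 0 (median 0.10), with the ligand gene Tgfb2 at 0.28 (SE 0.16) and the signal transducer gene Smad3 at -0.10 (SE 0.06). Without control replicate 1, Tgfb2 was at 0.13, Lair1 at 0.10 and Itgb1 at 0.08, and without control replicates 1 and 4 Tgfb2 was at 0.06. These counts are of all 10 arrays, control replicate 1 included, and stand beside 53.3% of all genes above 0.

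Markers of the cells that make collagen overlapped between the groups. Fibroblast markers had 12 of 14 genes above 0 (median 0.12), and their level was 8.99 to 9.22 in the ECP arrays, against 8.54, 9.14, 9.12, 9.21 and 8.86 in the control arrays. Control replicate 1 was the lowest array, as it was for the mean of Col1a1, Col1a2, Col3a1, Col5a1 and Col5a2. That mean was 8.98 ± 0.13 in the ECP arrays and 8.97 ± 0.27 in the control arrays. Smooth muscle markers had 10 of 10 genes above 0 (median 0.29) and a level of 9.94 to 10.49 in the ECP arrays, against 9.41, 10.13, 10.26, 9.76 and 10.22 in the control arrays. Control replicates 1 and 4 were lowest. Whether these cell types had a part in the collagen values was not tested.

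**Figure D5:**
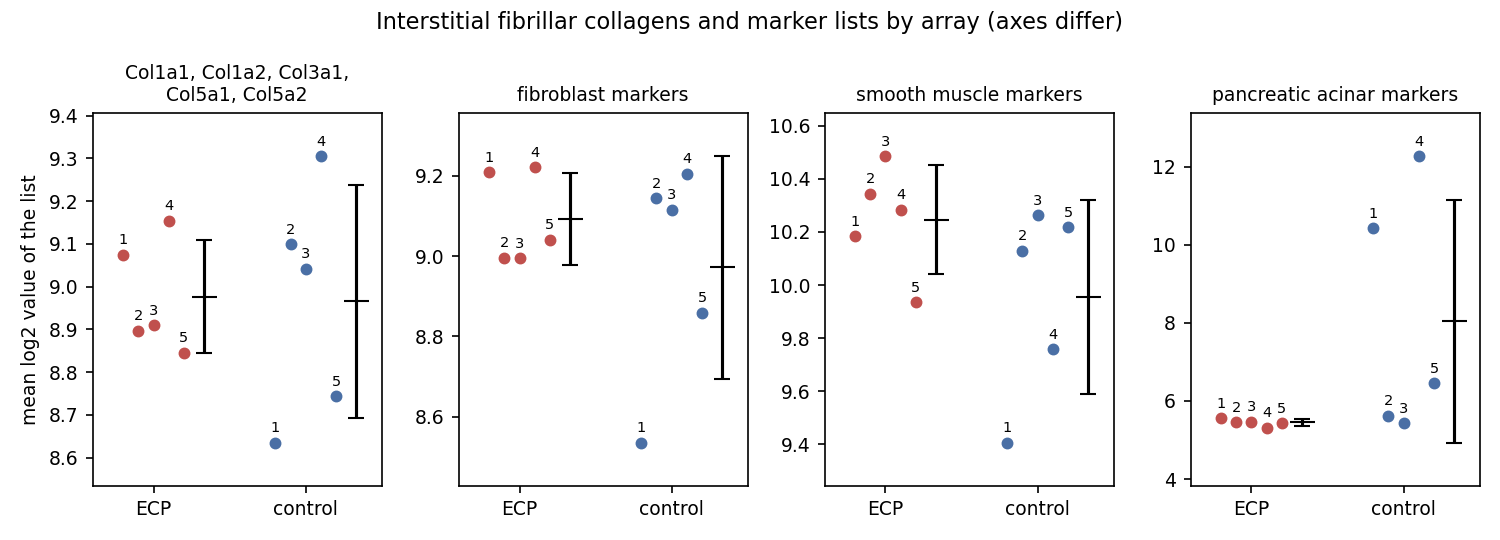
Mean log2 value (y axis, scales differ) of the 5 interstitial fibrillar collagens and of the fibroblast, smooth muscle and pancreatic acinar marker lists in the ECP arrays (red) and the control arrays (blue), numbered by replicate, with mean ± SD to the right of the dots. Control replicate 1 is lowest in the first 3 panels, and control replicates 1 and 4 are highest in the acinar panel.

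The other marker lists overlapped between the groups. Pericyte markers had 7 of 8 genes above 0 and a level of 7.38 ± 0.09 in the ECP arrays and 7.26 ± 0.14 in the control arrays. Mesothelium markers had 6 of 7 above 0, with 6.84 ± 0.07 in the ECP arrays and 6.72 ± 0.10 in the control arrays. Endothelial markers had 6 of 10 above 0, with 7.55 ± 0.14 in the ECP arrays and 7.48 ± 0.30 in the control arrays. Adipocyte markers had 7 of 7 above 0, with 7.01 ± 0.44 in the ECP arrays and 6.58 ± 0.45 in the control arrays. Leukocyte markers had 2 of 7 above 0, with 7.68 ± 0.39 in the ECP arrays and 7.79 ± 0.76 in the control arrays. The leukocyte level was 7.49, 7.63, 7.47, 9.13 and 7.23 in control replicates 1 to 5, against 7.32 to 8.30 in the ECP arrays. The higher control mean thus rests on control replicate 4. Mean levels differed by 0.01 for cartilage markers (5 of 8 above 0) and 0.00080 for squamous epithelium markers (5 of 7 above 0), and -0.02 for glia markers (3 of 5 above 0). No list was tested as a set.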

How the data were processed

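The deposited table holds log2 probe set values, and the submitters' processing notes name oligo and RMA as the authors' tools. Versions and options of both were not given in the sources used here. RMA gives all arrays 1 common distribution, so a shift of most genes in 1 direction would be hidden. Array medians lay between 6.94 and 6.98 and array correlations between 0.976 and 0.995. The number of arrays limits the precision, and no detection calls were used, so dim members were not separated from background.

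Probe sets (22203) were named through the platform annotation, whose symbols were all found in a RefSeq gene table (GRCm38.p6). Each of 19572 probe sets had 1 gene symbol, 0 had several and 2631 had none. The probe set with the highest mean over the 10 arrays stood for a gene, which left 19505 genes, 55 of them with several probe sets and none of those a collagen gene. Coordinates and upstream sequences come from RefSeq tables, and the upstream table held 34 of the 42 members.

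Groups and replicate numbers came from sample titles. Genes were compared in 1 limma fit of all genes (limma 3.58.1, R 4.3.3, two-sided lmFit and eBayes without covariates or filters) with Benjamini-Hochberg adjustment and a threshold of 0.05. The script was tested on simulated data with 200 changed genes. p-values measure the spread between these arrays, which the labels do not tie to separate mice. Gene pairs were tested with 100000 permutations for 10 arrays and all pairings for 8 (SciPy 1.17.1). Same-numbered arrays did not deviate together (correlations of -0.244 to 0.0761 between the ECP and the control array of a number). Such correlations cannot exclude a pairing by design, which the labels do not mention, and the samples were treated as unpaired.

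The members, classes, 20 gene lists, pairs and the rule for named genes were chosen with earlier results of these data known. The rule names 20 collagen genes, namely the main chains of each class, any with an unadjusted p under 0.05 and the smallest p of each class. It also names the 2 genes with the smallest p in each of the 20 lists, which was done for the 8 collagen-related lists only, and the 12 cell marker lists are given by level. Of 197 listed genes 182 were measured. Alternatives covered scaling, low values, probe sets, moderation, array weights, the replicate block, single arrays, the arrays with pancreatic transcripts, and class membership.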

Additional observations from a re-analysis of the deposited data

Results flagged for a closer look

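The 20 named collagen genes and the levels of all collagens and of the 4 classes gave 50 groups of 5 arrays. In 3 of them the gap between an outermost array and the next exceeded 0.71 of that group's range, which chance gives in about 1 in 20. Col8a1 was high in ECP replicate 2 (7.13, next 6.97). Col17a1 was high in control replicate 1 (5.11, next 4.70), and so was Col27a1 (7.45, next 7.17). Control replicate 1 also had the second highest acinar level.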

How the results depend on the processing

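In each of the 10 leave-one-out settings and 10 other settings, 0 collagen genes had an adjusted p under 0.05, the smallest adjusted p was 0.695 and no difference exceeded 0.31 in size. The level differences of the classes moved by less than 1 SD in all settings. Leaving out single arrays gave -0.028 to 0.0059 for all collagens, 0.0053 to 0.04 for fibrillar, -0.10 to -0.06 for type IV, -0.10 to 0.02 for FACIT and -0.02 to 0.03 for other genes. The planned class with multiplexins was run without Col7a1, which is not measured here.

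The count of genes lower at an unadjusted p under 0.05 was 1 (Col27a1). It was 0 without genes below the median (which leaves Col27a1 out), with trend and robust options or with array weights, and 2 (Col14a1 and Col6a6) with the acinar level as a covariate. It ranged from 0 to 1 when single arrays were left out, with 0 without ECP replicate 3 or control replicate 1, and the count of genes higher from 0 to 1, with 1 (Col10a1) without ECP replicate 5. Without control replicate 4 the 1 gene lower was Col6a5, without ECP replicate 5 Col4a6 and without control replicates 1 and 4 Col14a1. Col6a5, Col6a6 and Col10a1 are named after their values were seen.

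Of the 20 named collagen genes, 7 kept their sign in all settings and 13 changed it, from differences close to 0. With median centring Col3a1 was at -0.0031, Col4a2 at -0.0020 and Col6a3 at -0.0055. With renewed quantile normalisation Col1a1 was at -0.011, Col3a1 at -0.012 and Col6a3 at -0.0096. With array weights Col1a2 was at -0.0075, Col3a1 at -0.011, Col16a1 at 0.024 and Col18a1 at 0.029. Without control replicates 1 and 4 Col1a2 was at -0.0073, Col3a1 at -0.023, Col4a1 at 0.0047, Col16a1 at 0.077, Col6a1 at -0.027, Col17a1 at 0.013 and Col18a1 at 0.094. With the acinar level as a covariate Col3a1 was at -0.0051, Col16a1 at 0.058, Col6a1 at -0.023 and Col18a1 at 0.14. The cause of these changes was not tested.

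Leaving out single arrays gave -0.072 to 0.098 for Col1a1, -0.067 to 0.10 for Col1a2, -0.078 to 0.064 for Col3a1, -0.19 to 0.12 for Col5a1, -0.026 to 0.11 for Col5a2, -0.048 to 0.081 for Col4a2 and -0.084 to 0.089 for Col16a1. It gave -0.020 to 0.13 for Col6a1, -0.045 to 0.047 for Col6a3, -0.064 to 0.059 for Col8a1, -0.12 to 0.0097 for Col17a1, -0.11 to 0.12 for Col18a1, -0.014 to 0.21 for Bmp1 and -0.011 to 0.45 for Lox. Without a change of sign the ranges were -0.13 to -0.028 for Col4a1, -0.21 to -0.046 for Col4a3, -0.12 to -0.021 for Col4a5, -0.27 to -0.033 for Col4a6, -0.18 to -0.077 for Col14a1, 0.083 to 0.18 for Col6a2, -0.12 to -0.027 for Col15a1 and -0.25 to -0.15 for Col27a1. In the other lists they were 0.072 to 0.35 for Tgm2, 0.067 to 0.19 for Omd, -0.17 to -0.058 for Kera, 0.077 to 0.17 for Itgb1, 0.10 to 0.34 for Lair1, -0.37 to -0.16 for Lama3 and 0.13 to 0.35 for Tgfb2, and with the acinar level as a covariate Tgm2 was at 0.44 and Tgfb2 at 0.076. The pair Col4a1 and Col4a2 passed the threshold by Pearson's r without the 2 arrays farthest from the Col4a1 median (r = 0.659) and without control replicates 1 and 4 (r = 0.766) but not by Spearman's rho (0.667 in both), and Col6a1 and Col6a2 turned to r = -0.018 without the 2 farthest arrays. With the replicate number as a block, 0 collagen genes passed, Col27a1 stayed at -0.22 and no call changed. Settings for the 16 named genes of the other lists were added after seeing the data.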
